A study of Mus musculus with 4 samples.

Results

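CpGs in repeat sequence were taken as the CpG sites whose base is written in lower case, or soft-masked, in the mm10 sequence of the mouse genome. Only sites listed in all 4 RRBS libraries and lying over 4 kb from any CpG island were used. Islands were found in the sequence as stretches of over 200 bp whose GC content was 50% or more and whose CpG count exceeded 0.6 of that given by base composition. The rule gave 175642 masked CpGs out of 1545651 CpGs listed in all 4 libraries (11.4%). They made up 23.7% of the 742328 listed CpGs beyond the 4 kb limit, and the other 566686 were upper-case, or unmasked, and served for comparison. The masked CpGs lay in 87823 separate lower-case stretches, of which 51308 held a single listed CpG. No measured value was used to choose them.

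Soft-masking marks sequence that a masking program took as repetitive. Interspersed repeats, such as LINE, SINE and LTR retrotransposons, and simple tandem repeats are the main kinds of repeats in mammalian genomes. Retrotransposons spread by copying themselves through RNA, and in most mammalian cells their CpGs are methylated, which helps to keep them silent. DNMT3A and DNMT3B set new methylation, and DNMT1, the maintenance methyltransferase, copies it to the daughter strand at replication. LIF is the cytokine that keeps mouse embryonic stem cells (ESCs) undifferentiated. No repeat annotation was read here, so sequences are described by their letters and copy number and not by family name.

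There were 4 libraries, 1 per condition, made from ESCs and from neurons of the R1 line (wild type) and of the Tet/Tet line (genotype Dnmt1 Tet/Tet). Where 4 values are given in 1 order, both ESC values come first and R1 precedes Tet/Tet in each cell type. Tet/Tet cells descend from the R1 line and carry tet-off cassettes inserted at Dnmt1 ahead of its start codon, on account of which the study uses them as a model of excess DNMT1. The name refers to tetracycline control and not to the TET enzymes. Each genotype was 1 cell line. The ESC media held FBS and LIF, and Tet/Tet cells were also kept in puromycin (1 µg/ml) and neomycin (150 µg/ml). Neomycin is the name in the labels, and the study's methods name G418 at that concentration. For neurons, embryoid bodies were made for 2 days without LIF and then differentiated in NDiff227. The labels give 10 to 15 days for this step, and the study's methods give a shorter upper limit. No sorting of the cultures is described. The sample codes in the labels share 1 prefix in both ESC libraries and another in both neuron libraries. The labels describe phenol-chloroform DNA for ESCs and kit-extracted DNA for neurons, whereas the study's methods describe phenol-chloroform for all, so cell type cannot be told apart from code prefix or, if the labels hold, from extraction. Only methylation was measured, so the cell types were not checked against expressed markers. Each value is the percent of reads reporting cytosine at a CpG. The read number behind a value is unknown and no site could be weighted by it.

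With no replicate libraries there was no test between conditions and no p-value. Errors given as ± are SDs over the 18 chromosomes with at least 1000 masked CpGs, and they describe the genome, not the spread between cultures. The table of Tet/Tet neurons was analysed only up to position 55762981 of chromosome 7 and from position 128096803 of chromosome 10, and chromosomes 8 and 9 of it were not analysed here. No masked CpG of chromosome 8 or 9 therefore entered, and 5228 came from chromosome 7 and 296 from chromosome 10, against 15440 on chromosome 1.

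The sequences most often met among the masked CpGs are shown first, because the levels of such repeats are described below and their letters identify them. Each is the 26-base window with the CpG in capitals and 12 bases on either side, written 5′ to 3′ from GRCm38. They are the 8 windows with the most masked CpGs in the set that share no run of 16 bases with each other.
window 1: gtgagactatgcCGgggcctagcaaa
window 2: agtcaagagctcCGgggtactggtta
window 3: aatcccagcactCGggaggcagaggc
window 4: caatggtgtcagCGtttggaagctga
window 5: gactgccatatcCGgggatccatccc
window 6: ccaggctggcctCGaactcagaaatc
window 7: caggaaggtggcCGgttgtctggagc
window 8: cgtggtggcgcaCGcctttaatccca

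Windows 1, 2, 5 and 7 hold the CpG in CCGG, the MspI site, and windows 3, 4, 6 and 8 do not. The first copy of window 1 among the masked CpGs studied was at chr1:3420041-3420066 on the minus strand, in an intron of Xkr4. The places given for the other windows are likewise first copies in the set. That of window 2 was at chr1:3091441-3091466 (minus strand, no annotated gene). Window 3 was at chr1:4864483-4864508 (plus strand) in an intron of both Tcea1, which encodes a transcription elongation factor, and Gm37988, and window 7 at chr1:10382810-10382835 (minus strand) in an intron of Cpa6. Windows 4, 5, 6 and 8 were at chr1:6457230-6457255, chr1:7057393-7057418, chr1:7256342-7256367 and chr1:4721981-4722006, all on the plus strand and outside annotated genes.

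Window 1 had 21139 exact copies in the genome, of which 4055 were among the masked CpGs studied. Window 2 had 22103 copies and 3104 in the set, and window 6, with 37728 copies, had 454. Window 7 had the fewest copies, 1107.

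Several of these windows are parts of the same repeats. Window 2 lay within 1 kb of 38.6% of the copies of window 1, and in 96.7% of those cases it stood 150 bases away in the opposite orientation, within 5 bases. Window 4 lay within 1 kb of only 9.85% of the copies of window 1, at -75 bases in the opposite orientation in 95.5% of those. Window 5 lay near 1.69% of the copies of window 1, at -105 bases in the same orientation in 90.8% of those. Windows 3, 6 and 8 formed another group. Window 6 was within 1 kb of 40.3% of the copies of window 3, mostly (89.7%) at 31 bases. Window 8 was near 13.1% of the copies of window 3, at -19 bases in 92.9% of those. Window 7 was near copies of the other windows in at most 11 cases each.

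The majority base at each position around window 1 is printed because it shows how CpG-poor this repeat is. It covers 122 bases from 20468 copies, the leading base was found in 95.01% of copies on average, and the capitals mark its only CpG.
majority around window 1: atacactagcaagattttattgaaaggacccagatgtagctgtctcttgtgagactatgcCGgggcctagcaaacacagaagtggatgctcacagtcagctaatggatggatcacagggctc

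The masked CpGs were at intermediate levels in ESCs, highly methylated in R1 neurons and largely unmethylated in Tet/Tet neurons. Their mean was 50.7% ± 2.10 in R1 and 53.8% ± 2.11 in Tet/Tet ESCs, and 88.2% ± 0.754 in R1 and 18.1% ± 0.572 in Tet/Tet neurons (SD, n = 18 chromosomes). For the unmasked CpGs the same means were 44.7%, 47.0%, 86.6% and 16.1%. The masked mean was therefore above the unmasked mean in each library. The lowest and highest chromosome means of masked CpGs were 48.3% and 58.2% in R1 and 50.6% and 59.96% in Tet/Tet ESCs, and 85.6% and 88.9% in R1 and 16.3% and 18.8% in Tet/Tet neurons. The ranges of the ESC libraries overlapped with each other and with neither neuron library. The Y chromosome held the highest mean in both ESC libraries and the lowest in Tet/Tet neurons.

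Single masked CpGs were spread widely in ESCs. In R1 ESCs 19.6% of them were under 20% methylated, 60.2% between 20% and 80% and 20.2% at 80% or more. The same shares in Tet/Tet ESCs were 16.9%, 60.5% and 22.6%. In R1 neurons 85.3% were at 80% or more, and 32.3% were at 100%. In Tet/Tet neurons 67.5% were under 20%, 22.9% were at 0, and 3.17% were at 80% or more. That last share was 0.974% among unmasked CpGs. Values at exactly 0 or 100% can come from few reads.

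**Figure D1:**
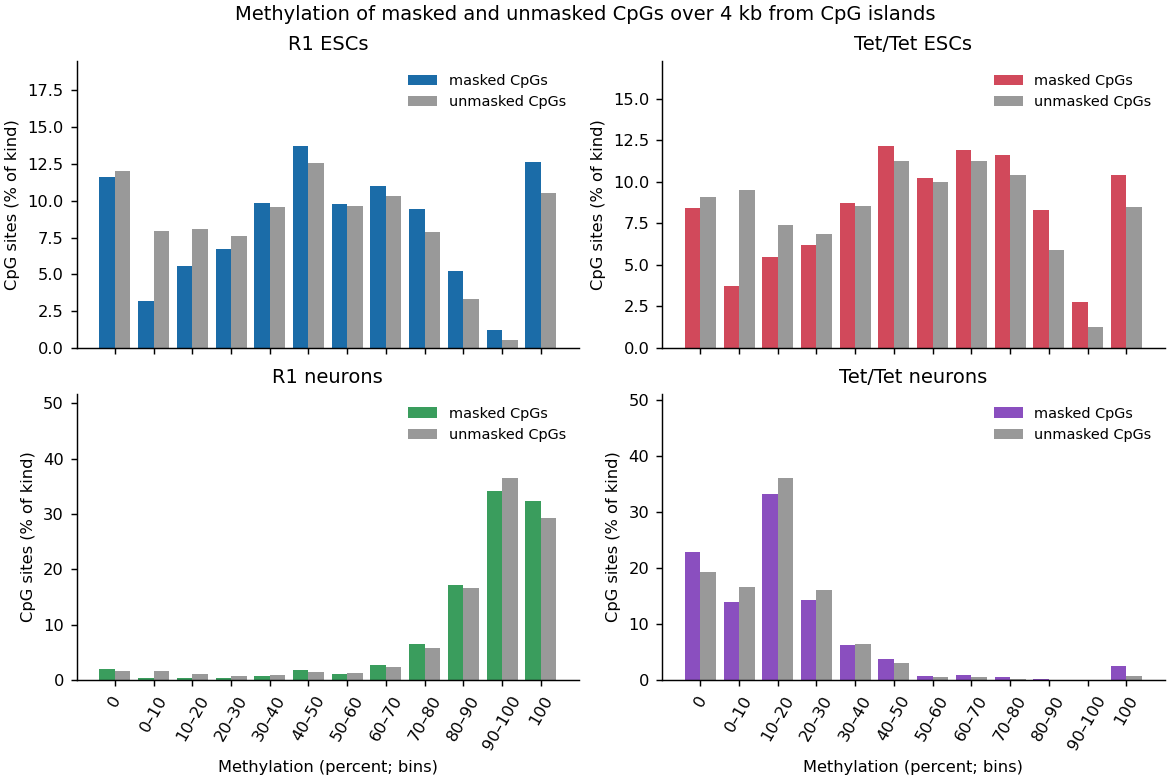
Share of CpG sites (y axis, percent of each kind) in bins of methylation (x axis, percent, with exact 0 and exact 100 as bins of their own) for masked CpGs (coloured) and unmasked CpGs (grey) in each of the 4 libraries. Masked CpGs at exactly 100 make up 2.59% in Tet/Tet neurons against 0.817% of unmasked CpGs.

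Tet/Tet ESCs were compared with R1 ESCs to ask how repeats differ between the genotypes before differentiation. Masked CpGs were 3.03 ± 0.588 percentage points higher in Tet/Tet ESCs, with chromosome values from 1.81 to 4.01, all above 0. At unmasked CpGs the difference was 2.31 ± 0.667. The median difference at single masked CpGs was only 0.876, with an SD over sites of 28.4, so changes in either direction were common. A difference of at least 10 percentage points upward was found at 51712 masked CpGs (29.4%), against 15.5% of all CpGs listed in the 4 libraries and 26.5% of those over 4 kb from an island. The same difference downward was found at 33454 (19%), against 10.6% and 17.6%. Most of the excess over all listed CpGs was thus shared with unmasked CpGs away from islands. Per stretch, among the 6456 with at least 5 masked CpGs, 1747 were higher in Tet/Tet ESCs by at least 10 points and 550 lower. Unmasked stretches were not counted, so these counts have no background share beside them.

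The same comparison in neurons gave a far larger difference in the other direction. Masked CpGs were lower in Tet/Tet neurons by 70.0 points on average (-70.0 ± 0.678), and unmasked CpGs gave -70.5 ± 1.85. A drop of at least 10 points was found at 165369 masked CpGs (94.2%), against 60.5% of all listed CpGs and 94.9% of those over 4 kb from an island. Only 1349 masked CpGs (0.768%) were higher by that much, against 0.801% and 0.483%. Among the stretches with at least 5 masked CpGs, 6431 of 6456 were lower and 5 were higher by at least 10 points, again with no count of unmasked stretches.

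Neurons were compared with the ESCs of their genotype to ask how repeats change on differentiation, with the limit that the code prefix of the libraries changed as well. In R1 cells masked CpGs were 37.4 ± 2.25 points higher in neurons, and 139425 (79.4%) were higher by at least 10 points, against 53.4% of all listed CpGs and 81.8% of those over 4 kb from an island. A fall of that size was found at 6100 (3.47%), against 2.02% and 2.85%. In Tet/Tet cells masked CpGs were 35.6 points lower in neurons (-35.6 ± 2.34), and 134758 (76.7%) fell by at least 10 points, against 40% and 71.4%. A rise was found at 9711 (5.53%), against 4.86% and 5.78%. The share rising in R1 cells was thus near that of CpGs away from islands in general, and the share falling in Tet/Tet cells was somewhat above it. Masked CpGs also had higher means than unmasked ones in both ESC libraries. The part of this difference in the shares was not tested.

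Since masked and unmasked CpGs differ in their surroundings, they were compared at the same number of CpGs within 1 kb. Masked CpGs had a median of 14 CpGs per kb and unmasked 16. At equal CpG number the masked mean was higher by 4.61 ± 1.56 points in R1 and 5.46 ± 1.51 in Tet/Tet ESCs, and 1.15 ± 1.43 in R1 and 2.23 ± 0.599 in Tet/Tet neurons. It was higher on 18 of 18 chromosomes in both ESC libraries and in Tet/Tet neurons. In R1 neurons it was higher on 14 and lower on 4, and the gap was smaller than the SD over chromosomes.

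The gap rested on CpG-dense sequence. At 1 to 5 CpGs per kb masked CpGs were lower than unmasked by 2.70 points in R1 ESCs (a difference of -2.70) and -2.68 in Tet/Tet ESCs, and for neurons the difference was -3.27 in R1 and 0.409 in Tet/Tet. At 15 to 19 CpGs per kb the masked excess was 4.86, 5.96, 0.340 and 2.03 points in the same order. At 30 to 39 CpGs per kb it reached 27.4, 29.04, 16.6 and 9.20 points. There the 11408 masked CpGs had means of 50.6% ± 4.48, 54.0% ± 4.73, 86.5% ± 2.22 and 23.2% ± 2.47, and the 37567 unmasked CpGs had 23.2% ± 8.37, 24.9% ± 9.36, 70.0% ± 6.15 and 14.002% ± 2.00. In the ESC libraries and R1 neurons the masked means thus stayed near those of CpG-poor sequence where the unmasked means were far lower. In Tet/Tet neurons the masked mean was instead higher than the 15.0% of masked CpGs at 1 to 5 CpGs per kb, and the unmasked mean was close to its 14.6% there. At 40 or more CpGs per kb the 2162 masked CpGs had 32.7%, 34.9%, 79.4% and 23.7%, against 10.7%, 11.2%, 39.8% and 8.94% for unmasked CpGs. With only sites under 20 CpGs per kb, a limit set after seeing these values, the matched gap was 0.636 and 1.15 points in R1 and Tet/Tet ESCs, and for neurons -1.35 in R1 and 1.00 in Tet/Tet.

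**Figure D2:**
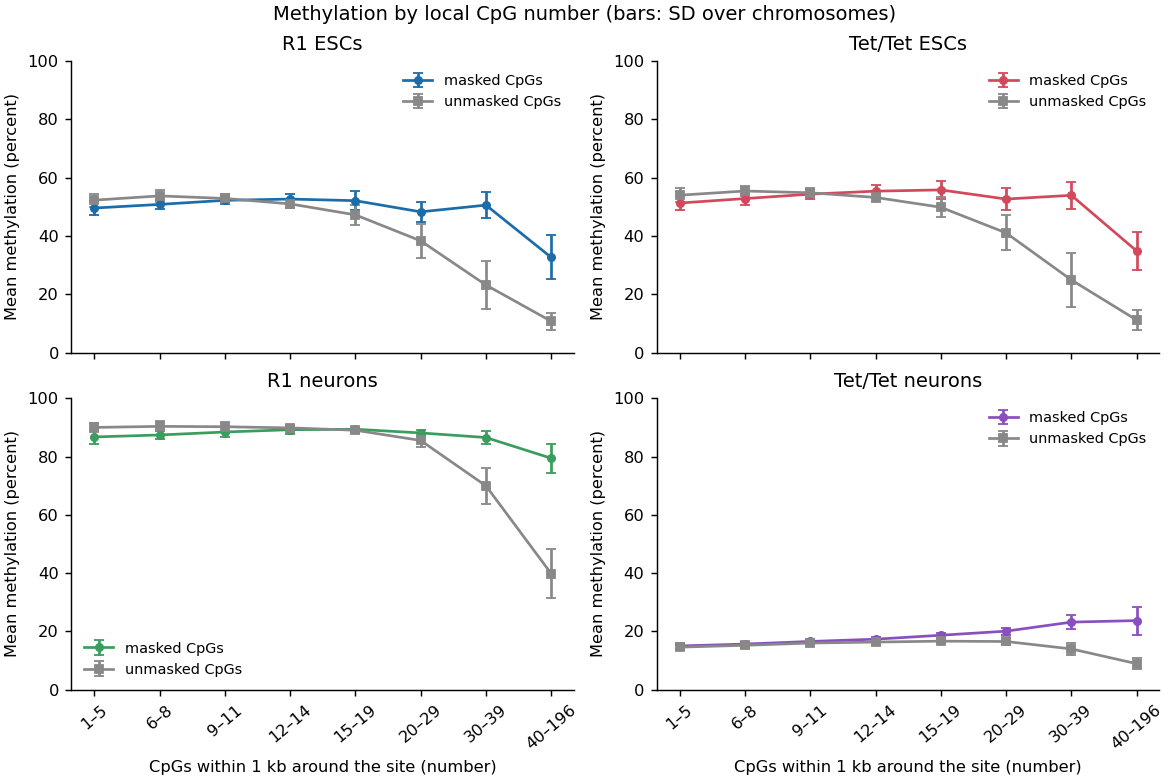
Mean methylation (y axis, percent) against the number of CpGs in the 1 kb around the site (x axis, bins) for masked (coloured) and unmasked (grey) CpGs in the 4 libraries, with bars for the SD over chromosomes. Masked CpGs are lower than unmasked up to 9 to 11 CpGs per kb in all libraries but Tet/Tet neurons, and they are higher in every library from 15 CpGs per kb on.

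The matched gap also depended on how sites were counted. With 1 mean value per stretch, so that a long repeat counts once, it was 1.03 points in R1 and 1.41 in Tet/Tet ESCs, and -0.769 in R1 and 0.769 in Tet/Tet neurons. Inside MspI fragments of 40 to 220 bp it was 7.98, 9.25, 3.65 and 2.63 points, and outside them 2.36, 2.85, -0.680 and 1.88. A CpG in CCGG was assigned only to the fragment that starts at its own cut. One that ends such a fragment on its other side could therefore count as outside, here and wherever these fragments are named below. Of the masked CpGs in CCGG 35.8% counted as inside, against 51.3% of the other masked CpGs. Outside annotated genes it was 6.86, 7.94, 3.33 and 3.11 points, and in gene bodies 1.46, 1.86, -0.0419 and 1.81. Of the masked CpGs 35.5% lay in genes, against 64.3% of the unmasked.

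Side by side in the same 1 kb, masked and unmasked CpGs differed by less than 1 point on average. Among the 2483 tiles of 1 kb with at least 3 CpGs of each kind, masked minus unmasked was 0.441 points in R1 ESCs with an SD over tiles of 18.2 and 0.0467 (SD 17.8) in Tet/Tet ESCs, and for neurons -0.661 (SD 12.4) in R1 and 0.331 (SD 12.3) in Tet/Tet. Each value was smaller than the SD over chromosomes. Outside MspI fragments the R1 ESC value was 2.68 points. Masked CpGs were the higher kind in 1216 tiles and the lower in 1254 in R1 ESCs, and in 1213 and 1253 in Tet/Tet neurons.

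At matched CpG number the differences between libraries were also compared between masked and unmasked CpGs. The rise from R1 to Tet/Tet ESCs was larger at masked CpGs by 0.848 ± 0.587 points, on 15 of 18 chromosomes, but it was -0.254 with each library's own listed sites. The drop from R1 to Tet/Tet neurons differed by 1.08 ± 1.63, less than the SD over chromosomes. The rise from R1 ESCs to R1 neurons was smaller at masked CpGs (-3.46 ± 1.16) and the fall from Tet/Tet ESCs to Tet/Tet neurons was larger (-3.23 ± 1.503), each on 18 of 18 chromosomes. Within the same 1 kb tiles these differences were -1.10 in R1 and 0.285 in Tet/Tet, so the sign in Tet/Tet cells was not the same side by side. The matched value in Tet/Tet cells was also -0.158 with each library's own listed sites, -0.150 under 20 CpGs per kb, -0.641 with 1 value per stretch and -6.61 within MspI fragments, and in R1 cells it was -1.80 with 1 value per stretch.

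Copy number was read as the count of exact matches, on either strand, of the 26-base window in the genome. Of the masked CpGs, 41.6% had a window found once, as had 97.7% of the unmasked, and 14.5% had a window found 1000 times or more. No unmasked CpG of the genome had a window with more than 75 copies, so letter case and copy number are not independent, and copy number was compared among masked CpGs. Class means varied by a few points with copy number in the ESC libraries and in Tet/Tet neurons, and little in R1 neurons. R1 ESCs averaged 48.97% ± 2.62 at windows found once, 53.2% ± 1.73 at 2 to 9 copies, 54.0% ± 2.12 at 10 to 99, 53.0% ± 2.25 at 100 or more but under 1000 and 47.6% ± 1.12 at 1000 or more. Tet/Tet ESCs went the same way with 51.4%, 56.9%, 57.6%, 57.0% and 50.2%. The class means of R1 neurons lay between 87.9% and 88.6%. Tet/Tet neurons averaged 16.999% ± 0.466 at windows found once, 20.4% ± 1.49 at 100 or more but under 1000 copies and 17.5% ± 0.501 at 1000 or more. The middle copy classes were thus the highest in the ESC libraries and in Tet/Tet neurons, by a few points, and at matched CpG number the excess of 100 or more but under 1000 copies over windows found once was 5.82, 7.20, 1.28 and 3.21 points in the 4 libraries. How reads that match several copies were placed is not given in the sources used here, and its part in these values was not tested.

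Rare high values in Tet/Tet neurons grew in share with copy number, except in the class of 1000 or more copies. Most of them were at exactly 100% (2.59% of all masked CpGs), a value that can come from few reads. The share of masked CpGs at 80% or more was 1.90% at windows found once, 3.27% at 2 to 9 copies, 4.16% at 10 to 99, 5.05% at 100 or more but under 1000 and 3.92% at 1000 or more. It also rose with the length of the lower-case stretch, from 1.60% in stretches up to 100 bp to 5.54% in those above 3000 bp. Within MspI fragments it was 2.65% for masked and 0.343% for unmasked CpGs, and outside them 3.56% and 1.36%.

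**Figure D3:**
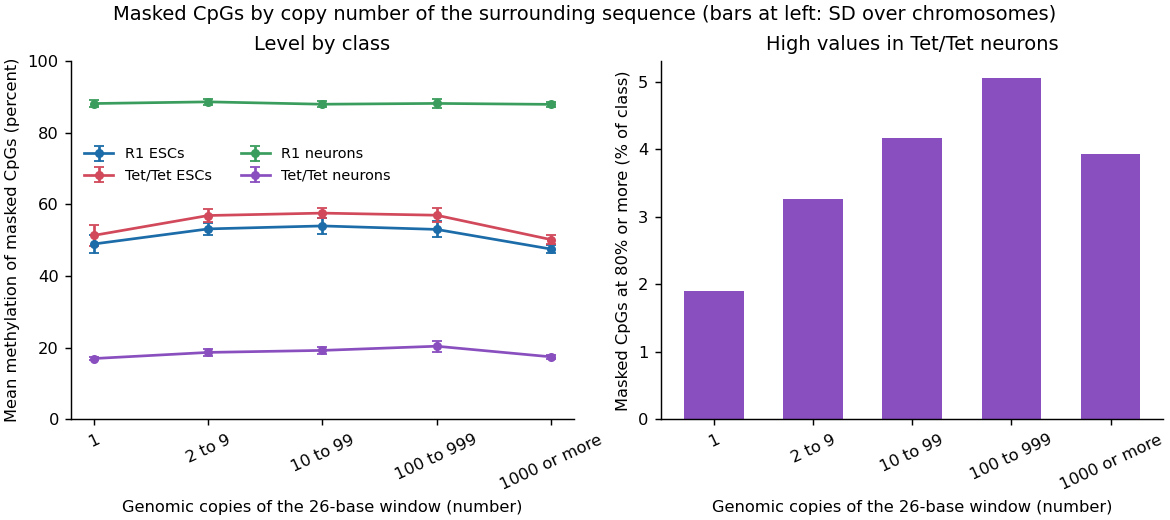
Left, mean methylation of masked CpGs (y axis, percent) by the number of exact genomic copies of their 26-base window (x axis), 1 line per library, with bars for the SD over chromosomes. Right, the share of masked CpGs at 80% or more in Tet/Tet neurons (y axis, percent of the class), which is 1.90% for windows found once and 5.05% for windows with 100 or more but under 1000 copies.

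Longer stretches were more methylated in ESCs up to 3000 bp. The median CpG number fell over the same classes, from 15 per kb up to 100 bp to 10 per kb above 1000 and up to 3000 bp. Length classes were not matched on CpG number. In R1 ESCs the mean was 47.9% ± 2.47 in stretches up to 100 bp, 53.4% ± 2.55 above 400 and up to 1000 bp, 55.8% ± 1.73 above 1000 and up to 3000 bp and 47.4% ± 3.17 above 3000 bp, where the median CpG number was 21 per kb against 10 in the class before. Tet/Tet neurons had 16.1% ± 0.490 in the shortest class and 20.9% ± 1.05 in the longest. CpGs 1000 bp or more inside a stretch had 56.8% ± 6.65, 60.2% ± 6.07, 88.4% ± 2.67 and 21.1% ± 3.10 in the 4 libraries, and those within 4 bp of an edge had 47.8% ± 2.69, 50.2% ± 3.31, 87.5% ± 0.884 and 16.05% ± 0.414. CpGs at the edges were thus lower than those deepest inside, by more than either SD over chromosomes in the ESC libraries and in Tet/Tet neurons.

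Simple tandem repeats, taken as stretches in which at least 75% of bases equal the base a fixed 1 to 12 positions before, were less methylated than other masked sequence in each library. The 1361 masked CpGs in them had 37.2% ± 6.01 in R1 and 39.8% ± 5.40 in Tet/Tet ESCs, and 77.5% ± 6.18 in R1 and 15.0% ± 2.85 in Tet/Tet neurons, against 50.8%, 53.9%, 88.2% and 18.2% in other masked sequence. CpGs in CCGG, which end an MspI fragment, had 51.6% ± 1.58, 53.6% ± 1.73, 90.03% ± 0.933 and 19.9% ± 0.583, and other masked CpGs 49.9% ± 2.75, 53.9% ± 2.79, 86.2% ± 0.899 and 16.3% ± 0.592. The base before and after the CpG was read on the forward strand, which gave 16 combinations. In Tet/Tet neurons the highest means were at GCGC, 20.1% ± 1.79, and CCGG, 19.9% ± 0.583. The lowest were at TCGT, 12.8% ± 2.06, ACGT, 12.8% ± 1.47, and TCGA, 12.9% ± 1.32. ACGA, which is TCGT read from the other strand, had 13.4% ± 1.21, so no single lowest combination is named. The Tet/Tet ESC excess over R1 ESCs was 2.04 points at CCGG and 4.08 at other masked CpGs.

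The most frequent windows differed from each other within the same library. In both ESC libraries windows 3, 4, 6 and 8, whose CpG is not in CCGG, had lower means than windows 1, 2, 5 and 7. The part of the MspI site in this was not tested. Window 1 had means of 54.0% in R1 and 58.4% in Tet/Tet ESCs, and 92.1% in R1 and 15.99% in Tet/Tet neurons, and window 2 had 55.8%, 56.8%, 92.7% and 18.8%. Both stood above the average of all masked CpGs in the ESC libraries and in R1 neurons, whereas window 1 was below it in Tet/Tet neurons. Window 4, from the same repeat, was lower throughout with 30.7%, 30.1%, 71.8% and 6.38%, and its median in Tet/Tet neurons was 0. Window 5, also from that repeat, had 50.6%, 46.5%, 84.7% and 16.5%.

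Windows 3, 6 and 8 also belong together and were mostly lower in ESCs than the average. Window 3 had 37.4% in R1 and 31.6% in Tet/Tet ESCs, and 81.7% in R1 and 15.5% in Tet/Tet neurons, and window 8 had 36.2%, 38.9%, 87.3% and 17.7%. Window 6 had 46.9%, 46.3%, 83.5% and 10.8%. Window 7, which is not linked to the others, had 49.8%, 61.5%, 93.8% and 24.97%, and showed the largest rise from R1 to Tet/Tet ESCs of the 8, 11.8 points. The largest fall was that of window 3, -5.77 points. The SD over copies was from 7.25 to 37.0 points, and the difference between Tet/Tet and R1 neurons ran from -76.1 points at window 1 to -65.4 at window 4.

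**Figure D4:**
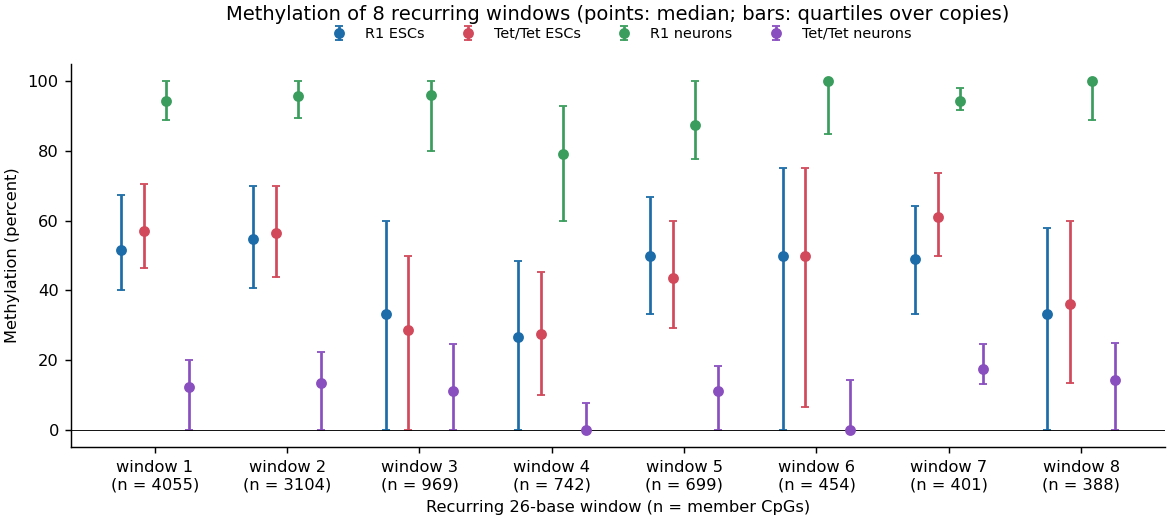
Median methylation (y axis, percent) of the masked CpGs in each of the 8 most frequent windows (x axis, with the number of CpGs), 1 colour per library, with bars from the lower to the upper quartile over copies. In all 8 windows the R1 neuron median is the highest and the Tet/Tet neuron median the lowest, and window 4 is the lowest window in both ESC libraries and in R1 neurons.

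Aligned on window 1, the masked CpGs of that repeat had different mean levels at different places. The CpG at -75 bases had 31.99% in R1 and 31.7% in Tet/Tet ESCs, and 74.2% in R1 and 6.61% in Tet/Tet neurons over 554 copies. The one at 150 bases had 54.9%, 56.8%, 92.6% and 19.4% over 1691 copies. Of the 7 places seen in at least 100 copies, -40 bases had the highest level in ESCs, 64.7% and 69.7%, with 87.8% and 12.2% in neurons over 231 copies. Mean levels at places less than 200 bases apart in this repeat thus differed in the same library. Each place averaged its own set of copies, so CpGs within the same copies were not compared. The SD over copies in R1 ESCs was 26.7 points at -75 bases, 30.9 at -40 and 25.2 at 150.

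Across all 85 windows with at least 100 masked CpGs, 26233 CpGs in all, window means ran from 11.4% to 72.8% in R1 and 15.4% to 82.7% in Tet/Tet ESCs, and 67.6% to 94.8% in R1 and 5.87% to 58.7% in Tet/Tet neurons. The means of the 85 windows in R1 and Tet/Tet ESCs had a Pearson r of 0.952, and those in R1 and Tet/Tet neurons had 0.390. Over single masked CpGs, not averaged by window, r was lower, 0.575 for the ESC libraries and 0.178 for the neuron libraries. The 35 windows with the CpG in CCGG averaged 52.2%, 55.4%, 91.3% and 21.8% in the 4 libraries. The averages were 43.6%, 48.2%, 85.5% and 18.5% in the other 50. Windows share libraries and overlap in sequence, so these are descriptions. The lowest and highest windows are shown because they are the extremes among these 85.
lowest in both ESC libraries and in R1 neurons: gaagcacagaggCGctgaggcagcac
highest in R1 ESCs: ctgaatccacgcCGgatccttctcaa
highest in Tet/Tet ESCs: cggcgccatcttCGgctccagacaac
highest in R1 neurons: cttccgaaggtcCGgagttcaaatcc
lowest in Tet/Tet neurons: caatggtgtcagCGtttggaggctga
highest in Tet/Tet neurons: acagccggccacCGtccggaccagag

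The first of these was at chr1:17922261-17922286 on the minus strand at its first copy in the set. Over 100 masked CpGs it had 11.4% in R1 and 15.4% in Tet/Tet ESCs, and 67.6% in R1 and 13.3% in Tet/Tet neurons. The window highest in R1 ESCs (chr1:8029384-8029409, plus strand) had 72.8%, 82.4%, 94.355% and 31.7% over 152. The window highest in Tet/Tet ESCs (chr1:4440554-4440579, plus strand) had 69.5%, 82.7%, 90.7% and 21.3% over 116, and that highest in R1 neurons (chr1:4842989-4843014, minus strand) 63.4%, 71.1%, 94.8% and 21.2% over 208. The window lowest in Tet/Tet neurons (chr1:3733318-3733343, minus strand) reads like window 4 and had 28.7%, 29.1%, 71.2% and 5.87% over 615.

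The window highest in Tet/Tet neurons stood apart from the other 84. Its first copy in the set was at chr1:7287692-7287717 on the minus strand. The window had 794 genomic copies, and 146 of its CpGs were in the set. Their means were 40.5% in R1 and 44.0% in Tet/Tet ESCs, and 84.4% in R1 and 58.7% in Tet/Tet neurons, so that Tet/Tet neurons were above Tet/Tet ESCs here. In Tet/Tet neurons the values ran from 0 to 100 with a lower quartile of 35.0, a median of 66.7 and an upper quartile of 83.3, and 32.2% of the CpGs were at 80% or more. The next windows in order had 38.9% and 35.8% in Tet/Tet neurons. The first of these 2 is the same sequence shifted along the repeat and the other a near copy of it.
next highest in Tet/Tet neurons: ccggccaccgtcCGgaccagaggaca
next after it in Tet/Tet neurons: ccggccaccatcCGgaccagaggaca

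The majority sequence around that window, from 766 copies with the leading base in 93.6% of copies on average, is CpG-rich, and its 8 CpGs are in capitals.
majority around the highest window: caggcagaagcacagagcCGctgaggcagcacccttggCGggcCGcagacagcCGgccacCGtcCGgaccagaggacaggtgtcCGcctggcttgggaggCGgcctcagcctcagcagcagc

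In Tet/Tet neurons the medians were highest at 3 neighbouring CpGs of this repeat, one of them the CpG by whose mean the window was chosen. The window's own CpG had a median of 66.7% over 146 copies, the CpG 7 bases before it (at -7) 29.4% over 157 with quartiles of 12.9 and 94.1, and the CpG at 4 bases 26.7% over 179 with quartiles of 16.7 and 66.7. The other 12 CpGs within 150 bases, each seen in at least 50 copies, had medians from 10.0% to 20.4%. Their means set the 3 less apart, with 35.0% at 79 bases and 30.1% at -76 against 38.6% at 4 bases. In R1 neurons the 3 CpGs had medians of 95.9%, 93.2% and 96.1%, and the others were at most 95.4%. In R1 ESCs the 3 had 43.4%, 41.3% and 42.1%, which were above the medians of the other 12. The CpGs at -7 and at 4 bases are both in CCGG, the MspI site, 11 bases apart, with the window's CpG between them. The part of the MspI cuts in these levels was not tested.

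**Figure D5:**
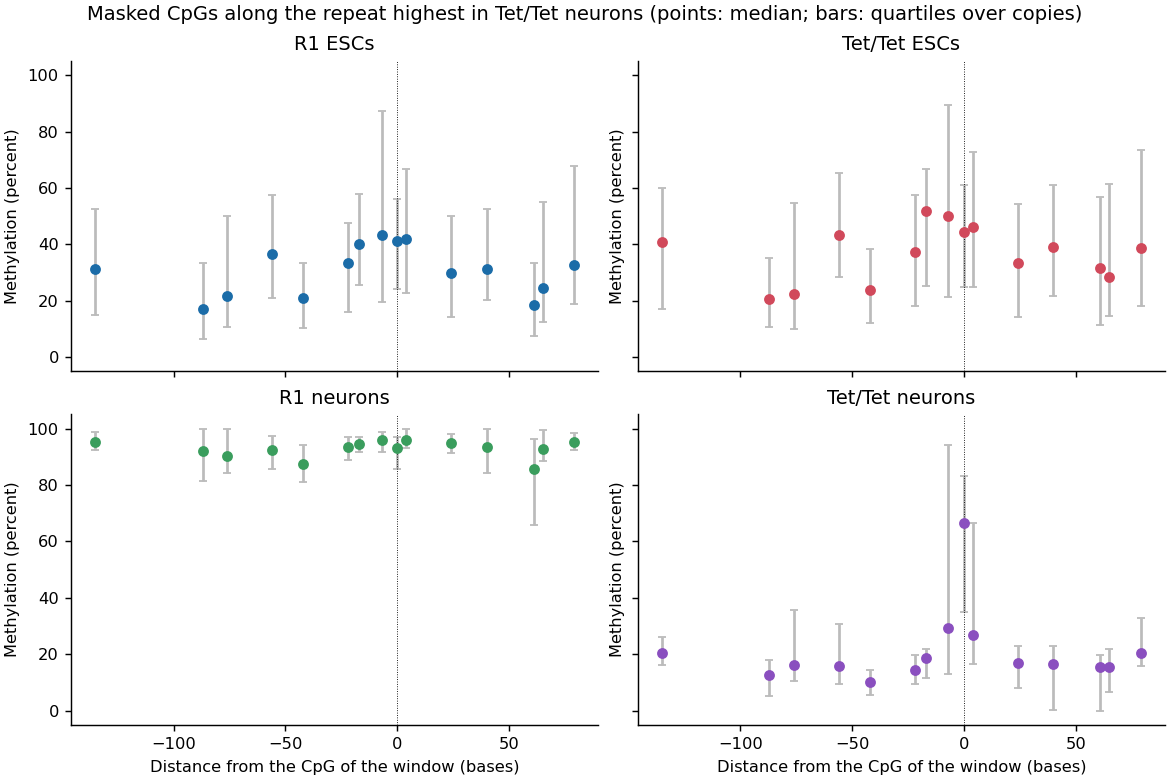
Median methylation (y axis, percent) of masked CpGs by distance from the CpG of the window highest in Tet/Tet neurons (x axis, bases), 1 panel per library, with bars from the lower to the upper quartile over copies and a dotted line at the window's CpG. In Tet/Tet neurons the CpG at 0 has a median of 66.7%, and CpGs outside the central 3 have 10.0% to 20.4%.

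Single stretches were named by fixed rules, and the extremes among them were chosen by the values given, so these are descriptions. The 3 stretches with the most masked CpGs were long. That at chr2:80826022-80833769, outside annotated genes, held 42 of them, with 22.7% in R1 and 22.2% in Tet/Tet ESCs, and 84.0% in R1 and 20.4% in Tet/Tet neurons, and all 42 were lower in Tet/Tet than in R1 neurons. That at chrX:72572852-72586519, in an intron of Gabra3 (a GABA-A receptor subunit gene), held 39, with 28.8%, 33.7%, 80.9% and 21.5%. That at chr1:122765760-122774511, outside annotated genes, held 35, with 17.5%, 19.2%, 90.2% and 19.4%. All 3 were below the average of masked CpGs in both ESC libraries. They had median CpG numbers of 39.5, 44 and 56 per kb.

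Among the 2108 stretches with at least 8 masked CpGs, 47 had a mean of 50% or more in Tet/Tet neurons, against 2102 in R1 neurons. Unmasked stretches were not counted in this way. The highest in Tet/Tet neurons were at chr12:19945638-19946380 (83.3% over 9 CpGs, with 88.9% in R1 ESCs, 76.5% in those of Tet/Tet and 86.1% in R1 neurons), at chr16:59891918-59892258 in an intron of Epha6, an ephrin receptor gene (81.3% over 8, with 0, 58.3% and 94.8%), and at chr3:33929749-33935962 (77.8% over 9, with 48.9%, 50.7% and 82.7%). The Epha6 stretch was at 0 at all 8 CpGs in R1 ESCs, and its windows had 17 to 65 genomic copies. The lowest were at chr1:118104305-118104774, chr3:12125201-12125683 and chr6:19585650-19587050. Each of these 3 had 0 at all 8 CpGs in Tet/Tet neurons, with 90%, 70.4% and 68.8% in R1 neurons. Apart from the one in Epha6, none of these 6 was in an annotated gene.

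The largest rises from R1 to Tet/Tet ESCs were at chr6:132523893-132526236, which overlaps an exon of Gm44070 (31.9% to 91.6%), in the Epha6 stretch (0 to 58.3%), and at chr15:20918255-20920371 in an intron of Cdh12, a cadherin gene (27.8% to 84.0%), where the annotation also has Gm49685 and the miRNA gene Gm27397. The CpGs of the Cdh12 stretch were higher in Tet/Tet ESCs at 8 of 9 sites. In Tet/Tet neurons the first and last of these had 11.1% and 22.0%. The largest falls were at chr3:80444445-80444717 (75% to 3.57%), chrX:114251025-114257743 (55.0% to 15.6%) and chrX:132745213-132751092 (45.8% to 7.41%), all outside annotated genes. Each of these stretches rests on 8 or 9 CpGs, many of them at 0 or 100%, and SDs over CpGs reached 53.5 points.

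Whether a CpG was listed at all also differed between the kinds. Over the part of the genome analysed in all libraries there were 4120218 masked and 10690814 unmasked CpGs over 4 kb from an island. R1 ESCs listed 5.96% of the masked and 6.80% of the unmasked, Tet/Tet ESCs 7.84% and 9.44%, R1 neurons 15.5% and 20.9%, and Tet/Tet neurons 14.01% and 19.3%. At matched CpG number the unmasked shares were 6.23%, 8.67%, 19.2% and 17.7%, all still above the masked. RRBS is built to read MspI fragments of 40 to 220 bp. Of the CpGs studied, 43.3% of the masked and 38.0% of the unmasked counted as lying in them. R1 ESCs listed 48.4% of all masked and 77.8% of all unmasked CpGs in such fragments. The masked CpGs studied are thus a smaller sample of their kind than the unmasked ones.

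Values just inside and just outside the distance limit were as follows. The 3832 masked CpGs from 4 to 5 kb of an island had means of 48.1%, 49.9%, 88.1% and 17.8%, and the 3802 from 3 to 4 kb, which the rule left out, had 45.8%, 47.8%, 87.2% and 18.2%.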

How the data were processed

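RRBS was performed on genomic DNA of R1 and Tet/Tet ESCs and neurons, 1 library each. According to the paper's methods and the submitters' processing notes, adapters were trimmed with Trim Galore 0.6.4, quality was assessed with FastQC 0.11.8, reads were mapped to mm10 with Bismark 0.19.0 and CpGs were called with MethylDackel 0.3.0. The authors deposited a methylation percent for each listed CpG (reads with cytosine over reads with cytosine or thymine), without read counts, so depth and precision per site are unknown and no interval or floor is given. The Fisher's exact test of the study needs counts and could not be applied.

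CpGs, CpG islands, MspI fragments and 26-base windows were located on GRCm38 (RefSeq FASTA, whose lower-case letters marked repeats) and genes were from GENCODE M21. The program that masked the FASTA is not given in the sources used here. It put 30.6% to 35.8% of each autosome, 46.8% of X and 96.3% of Y in lower case. Each CpG in CCGG was assigned to the MspI fragment that starts at its own cut, and not to the one it ends. Sites were weighted equally. Masked and unmasked CpGs were compared within each CpG number per kb that had at least 20 of each kind, weighted to the masked distribution. Computation used Python 3.11.15, numpy 2.4.6 and numba 0.67.0, with matplotlib 3.10.9 for figures, and the code was tested on simulated data. Named windows were the 8 with the most masked CpGs that share no run of 16 bases. Majority sequences were read from copies outside chromosome 18. Named stretches were the 3 with the most masked CpGs and, among those with at least 8, the 3 highest and 3 lowest in Tet/Tet neurons and the 3 with the largest rise and fall between ESCs. The 6 windows at the extremes, and the windows next to the highest, were chosen after their values were seen. The masked CpGs and all lists were chosen with earlier results of these data known. Alternatives varied the island distance, the sites, the weighting, the matching and the window.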

Additional observations from a re-analysis of the deposited data

Results flagged for a closer look

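The genotype difference at masked CpGs had opposite signs in the cell types. Tet/Tet was above R1 by 3.03 points in ESCs and the neuron value was -70.0 points, which differ by -73.1 points. The same 4 means give the opposite signs of the change on differentiation, 37.4 points in R1 and -35.6 in Tet/Tet, again a difference of -73.1. With 1 library per condition this difference was not tested, and cell type also coincided with the prefix of the libraries' sample codes.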

How the results depend on the processing

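No paired analysis was possible because each condition had 1 library and no result came from a test, and no alternative left out a replicate, since none existed. A value was taken as moved where an alternative shifted it by more than the SD over chromosomes. Of 268 recomputed values for 28 results, 209 stayed within it and 59 did not, and the cause was not tested. The sign changed in 15 of the 268, and in 14 of these the reported value was itself smaller than its SD over chromosomes. The means of masked CpGs and the differences between libraries kept their signs throughout.

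With 1 value per stretch, the masked minus unmasked gap was 1.03 points in R1 and 1.41 in Tet/Tet ESCs, and -0.769 in R1 and 0.769 in Tet/Tet neurons. Tet/Tet neurons then averaged 16.7%, the genotype difference was 2.36 in ESCs and -71.3 in neurons, and masked minus unmasked in the neuron minus ESC difference was -1.80 in R1 and -0.641 in Tet/Tet.

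With each library's own listed sites, the neuron means were 88.9% in R1 and 15.9% in Tet/Tet. The genotype difference was 3.77 in ESCs and -73.0 in neurons, and Tet/Tet neurons minus ESCs was -38.5. The gap was -0.665 in R1 neurons, and 2.17 in R1 and 1.92 in Tet/Tet ESCs. Masked minus unmasked in the genotype difference of ESCs changed sign to -0.254, and in the Tet/Tet neuron minus ESC difference it was -0.158.

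Within MspI fragments the gap was 3.65 in R1 neurons, and 7.98 in R1 and 9.25 in Tet/Tet ESCs, and the genotype difference in ESCs was 3.75. Masked minus unmasked was -1.02 in the genotype difference of neurons and -6.61 in the Tet/Tet neuron minus ESC difference. Windows with 100 or more but under 1000 copies minus windows found once gave 1.62 in R1 neurons, and 1000 or more copies gave 1.90 in R1 and 2.46 in Tet/Tet neurons. Outside MspI fragments the gap was -0.680 in R1 neurons, and 2.36 in R1 and 2.85 in Tet/Tet ESCs. Masked minus unmasked in the Tet/Tet neuron minus ESC difference was -0.966, the same-tile value in R1 ESCs was 2.68, and the copy differences were -1.17 and -1.75 in R1 and -1.04 in Tet/Tet neurons. Windows of 20 bases gave 0.984 in R1 neurons at 100 or more but under 1000 copies and 1.62 in Tet/Tet neurons at 1000 or more. Matching on CpG number gave 1.28 in R1 neurons at 100 or more but under 1000 copies.

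The gap in Tet/Tet ESCs was 6.98, and in Tet/Tet neurons 2.93, with 25 bases of the same case on each side. In Tet/Tet ESCs it was 3.84 with CpGs counted within 2 kb and 7.002 with weights of unmasked sites, and the 2 kb count gave -1.59 for masked minus unmasked in the Tet/Tet neuron minus ESC difference.

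The remaining alternatives were chosen after seeing the data. With only CCGG, R1 neurons averaged 90.03% and Tet/Tet neurons 19.9%, the genotype difference in ESCs was 2.04, and masked minus unmasked was 0.228 in it and -1.48 in the Tet/Tet neuron minus ESC difference. Without CCGG these means were 86.2% and 16.3%, the genotype difference in ESCs was 4.08 and masked minus unmasked in it was 1.45. Under 20 CpGs per kb the gap was 0.636 in R1 and 1.15 in Tet/Tet ESCs, and -1.35 in R1 and 1.00 in Tet/Tet neurons. Masked minus unmasked in the neuron minus ESC difference was then -1.99 in R1 and -0.150 in Tet/Tet.

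Depth per site is unknown, so rare values of 0 or 100% at single CpGs and stretches with few sites could not be separated from counting error. The share of masked CpGs listed was lower than that of unmasked ones, and the repeats with most copies rest on reads whose placement rule is not given in the sources used here.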
